A study of Mus musculus with 16 samples.

Results

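The genes described here handle zinc in the gastrocnemius muscle of mice with and without a CT26 tumor, and were taken by symbol: the metallothioneins Mt1 and Mt2, the zinc importer Slc39a14, the zinc exporter Slc30a1 and the zinc-sensing transcription factor Mtf1. They are 5 of the 35415 genes in the tables, and all 5 were among the 14749 genes that passed the filter on low counts. Total RNA was sequenced as polyA RNA from 16 male wild-type BALB/c mice that were 8 weeks old at purchase, 4 in each of 4 groups. The C group received saline under the same anesthesia and was set on a stationary treadmill each day, and the E group received saline and ran 6 times a week for 4 weeks, each time for 60 min at a belt speed of 14 m/min. The T group was inoculated under the skin of the left dorsolateral hind limb region with 2000000 CT26 cells, a colon carcinoma line from BALB/c mice, and was set on the stationary treadmill. The TE group was inoculated in the same way and ran the same program, which began on the day after inoculation. The sequenced mice were drawn at random from 12 per group, and their tumor sizes and the side of the muscle are not given in the sources used here. Not every TE mouse of the study formed a tumor, and whether a sequenced TE mouse was without one is not given either, so the TE libraries are grouped by their label.

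Zinc is held in the cell by metallothioneins, small cysteine-rich proteins that bind zinc and copper and buffer the free ion. Proteins of the Slc39 family bring zinc into the cytosol, and proteins of the Slc30 family move it out of the cytosol or into vesicles. When free zinc rises, MTF1 binds metal response elements (MREs) in DNA and turns on Mt1, Mt2 and Slc30a1. The metallothionein genes also respond to glucocorticoids and to inflammatory cytokines, and Slc39a14, which encodes the carrier ZIP14 for zinc, iron and manganese, is induced in inflammation and has been linked to muscle wasting in cancer.

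In the GENCODE annotation of GRCm39, Mt2 lies at chr8:94898819-94900207 and Mt1 at chr8:94905710-94906955, both on the plus strand, with 5502 bases between them. Slc39a14 lies at chr14:70540678-70588914 on the minus strand, Slc30a1 at chr1:191638808-191645361 on the plus strand and Mtf1 at chr4:124695897-124743593 on the plus strand. The canonical transcripts of Mt1 and Mt2 share no run longer than 20 bases. Gm45774 overlaps Mt2, 1700034H15Rik overlaps Slc30a1 and 1110065P20Rik overlaps Mtf1 on the opposite strand, and the strand setting of the counting is not given in the sources used here, so reads of each pair cannot be told apart. Gm56097 overlaps Mtf1 on the same strand, where strand cannot separate reads.

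Promoter windows of 300 bases, from 250 bases before to 50 bases after the RefSeq start, were found for 4 of the 5 genes, Slc39a14 being the other. The windows of Mt1, Mt2 and Slc30a1 are shown because their levels moved together or in opposite ways between mice. They come from a RefSeq table of GRCm38.p6, and each matched GRCm39 exactly once on its chromosome, at chr8:94905467-94905766 for Mt1, chr8:94898996-94899295 for Mt2 and chr1:191638643-191638942 for Slc30a1, all on the plus strand. Capitals mark the core of the MRE, searched as TGCACNC and TGCGCNC on both strands.
Mt1: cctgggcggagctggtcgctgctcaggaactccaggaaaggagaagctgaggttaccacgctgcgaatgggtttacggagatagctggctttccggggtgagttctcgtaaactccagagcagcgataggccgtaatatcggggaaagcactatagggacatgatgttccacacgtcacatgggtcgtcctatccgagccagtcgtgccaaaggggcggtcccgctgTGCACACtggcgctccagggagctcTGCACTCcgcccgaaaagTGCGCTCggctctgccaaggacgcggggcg
Mt2: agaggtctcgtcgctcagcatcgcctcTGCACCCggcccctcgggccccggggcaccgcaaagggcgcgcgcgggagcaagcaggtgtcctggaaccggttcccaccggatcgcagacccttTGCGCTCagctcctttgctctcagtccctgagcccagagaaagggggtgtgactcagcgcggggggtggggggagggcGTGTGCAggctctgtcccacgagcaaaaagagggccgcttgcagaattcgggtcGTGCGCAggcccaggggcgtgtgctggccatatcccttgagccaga
Slc30a1: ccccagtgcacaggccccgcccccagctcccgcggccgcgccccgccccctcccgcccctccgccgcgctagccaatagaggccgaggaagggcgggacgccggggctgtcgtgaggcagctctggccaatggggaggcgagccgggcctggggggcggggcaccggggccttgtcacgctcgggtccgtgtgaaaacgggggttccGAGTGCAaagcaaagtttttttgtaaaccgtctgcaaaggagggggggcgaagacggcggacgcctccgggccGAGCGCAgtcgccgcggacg

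The Mt1 window held 3 MRE cores, at bases 228 to 234, 253 to 259 and 271 to 277 counted from 1 at its 5′ end, the Mt2 window held 4 and the Slc30a1 window held 2, whereas the window of Mtf1 held 0. Among 32851 promoter windows of the same length, 25.7% held at least 1 core, 7.11% at least 2, 1.97% at least 3 and 0.517% at least 4. The core of the antioxidant response element, searched as TGACNNNGC on both strands, occurred once in the Mt2 window and once in the Slc30a1 window and in 12.4% of all windows, and overlapped no MRE core. The STAT site TTCNNNGAA occurred in 0 of the 4 windows and in 8.3% of all windows. A match in these letters is a description of the sequence and not a measured binding site.

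Library totals ranged from 35628211 to 37635741 counts, and the genes were covered by 90 to 1521 counts in a library, far above the 3 counts taken as the floor. All 16 libraries carry the same batch number in the labels. The 7 myofiber markers, among them Acta1 and Ckm, summed to between 106100 and 127100 CPM (counts scaled to the library total), and the 4 hepatocyte markers, including Alb, to at most 1.37 CPM. The replicates are separate mice, and replicate numbers do not link mice across groups. Levels within a gene are given as CPM with TMM factors, and levels between genes as FPKM, which is scaled to gene length.

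By the deposited FPKM the means over the 16 libraries were 22.1 for Mt2 (range 4.46 to 58.6), 15.4 for Mt1 (8.81 to 32.2), 3.19 for Slc30a1 (2.44 to 4.46), 1.92 for Mtf1 (1.61 to 2.30) and 1.60 for Slc39a14 (1.17 to 2.05). Mt1 exceeded Slc30a1 and Slc30a1 exceeded Mtf1 in 16 of 16 libraries, while Mt2 exceeded Mt1 in 11 and Mtf1 exceeded Slc39a14 in 14. The order within these last pairs turned with the gene lengths. The deposited counts and FPKM together imply lengths of 556 bases for Mt2, 1258 for Mt1 and 10218 for Slc39a14, where the canonical transcripts measure 748, 762 and 5197 bases. Rescaled to canonical lengths, an alternative chosen after seeing the data, the means were 25.5 FPKM for Mt1, 16.5 for Mt2, 3.23 for Slc30a1, 3.15 for Slc39a14 and 1.92 for Mtf1, with Mt2 above Mt1 in 0 and Mtf1 above Slc39a14 in 0 of 16 libraries. Rescaled to the merged exon lengths of GENCODE, also chosen after seeing the data, Mt2 exceeded Mt1 in 4 and Mtf1 exceeded Slc39a14 in 13 libraries. By counts, Mt1 exceeded Mt2 in 16 of 16 libraries. Neither Mt2 against Mt1 nor Mtf1 against Slc39a14 can therefore be ordered, while both metallothioneins had higher means than the other 3 genes with each set of lengths.

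**Figure D1:**
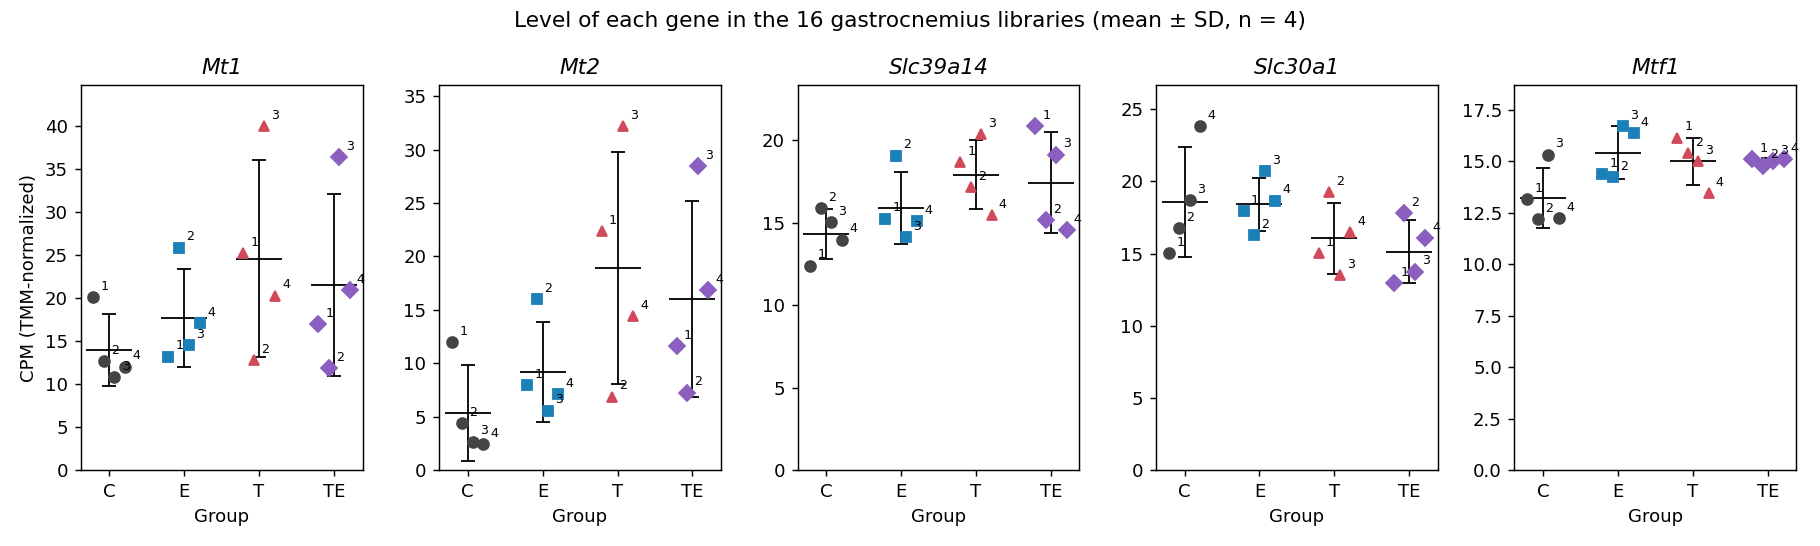
TMM-normalized CPM (vertical axis, from 0) of the 5 genes in the C, E, T and TE groups, with 1 numbered point per mouse and the mean ± SD of 4 mice as a bar. Mt1 and Mt2 spread widely within each group, and the ranges of the C and T groups overlap for every gene.

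Mt2 was higher in tumor-bearing muscle by its mean, but the mice of a group differed greatly. It was at 12.01, 4.39, 2.67 and 2.47 CPM in C replicates 1 to 4 and at 7.99, 16.04, 5.57 and 7.10 CPM in E replicates 1 to 4. It was at 22.4, 6.88, 32.2 and 14.4 CPM in T replicates 1 to 4 and at 11.6, 7.27, 28.5 and 16.9 CPM in TE replicates 1 to 4. C replicate 1 stood above the other C mice and within the range of the T group, T replicate 2 lay within the range of the C group, and the groups overlapped. Group means were 5.39 ± 4.50 (SD, n = 4) in C, 9.17 ± 4.69 in E, 19.0 ± 10.9 in T and 16.1 ± 9.17 CPM in TE. Over the 16 mice, the highest level was 13.0 times the lowest.

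The log2 fold change of Mt2 in T vs C, the tumor comparison in untrained mice, was 1.82 (SE 0.543, 95% confidence interval 0.68 to 2.97), with an adjusted p of 0.127 by edgeR's quasi-likelihood test, so the difference did not pass the threshold of 0.05. In TE vs E, the tumor comparison in trained mice, it was 0.81 (interval -0.29 to 1.91, adjusted p = 0.677), and between 0.38 (without TE replicate 3) and 1.23 (without E replicate 2) when 1 library was left out. The tumor main effect, the mean of these comparisons, was 1.32 (SE 0.376, interval 0.52 to 2.11, adjusted p = 0.104), with an unadjusted p of 0.00274. The call rests on single mice: without C replicate 1 the edgeR values were 2.57 (adjusted p = 0.0485) in T vs C and 1.70 (adjusted p = 0.0206) for the tumor main effect, and without T replicate 2 the tumor main effect was 1.46 (adjusted p = 0.0447). With no filter on low counts the tumor main effect of Mt2 was 1.31 with an adjusted p of 0.042, and with DESeq2 it was 1.31 with an adjusted p of 0.0682.

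Mt1, the neighbour of Mt2 on the chromosome, had the same order of group means over a narrower range. It was at 20.2, 12.7, 10.9 and 12.1 CPM in C replicates 1 to 4 and at 13.2, 25.9, 14.6 and 17.1 CPM in E replicates 1 to 4. It was at 25.3, 12.9, 40.03 and 20.3 CPM in T replicates 1 to 4 and at 17.0, 11.9, 36.4 and 20.98 CPM in TE replicates 1 to 4. T replicate 3 and TE replicate 3 were the highest, and the groups overlapped. The log2 fold change in T vs C was 0.82 (SE 0.342, interval 0.10 to 1.54, adjusted p = 0.282 by edgeR), and in TE vs E it was 0.29 (interval -0.43 to 1.00, adjusted p = 0.839). The tumor main effect of Mt1 was 0.55 (SE 0.241, adjusted p = 0.304 by edgeR), which did not pass the threshold. Without T replicate 3 the value in T vs C was 0.48. In TE vs E, limma gave 0.16 on log2(FPKM + 1) and 0.17 on log2(FPKM + 0.1).

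The ratio of Mt2 to Mt1 FPKM within a library differed between mice as well. It was 1.35, 0.781, 0.556 and 0.464 in C replicates 1 to 4 and 1.37, 1.40, 0.866 and 0.939 in E replicates 1 to 4. It was 2.00, 1.21, 1.82 and 1.60 in T replicates 1 to 4 and 1.54, 1.38, 1.77 and 1.82 in TE replicates 1 to 4. The lowest ratios were those of C replicates 2 to 4, and the ranges overlapped between C and T and, by 1 mouse each, between E and TE. The mean ratio was 0.787 ± 0.397 (SD, n = 4) in C, 1.14 ± 0.281 in E, 1.66 ± 0.339 in T and 1.63 ± 0.204 in TE. It is given without a test. Its level depends on the gene lengths (0.209 to 0.900 over all mice with canonical lengths), but the order of the mice does not, since the lengths are the same in every library.

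**Figure D2:**
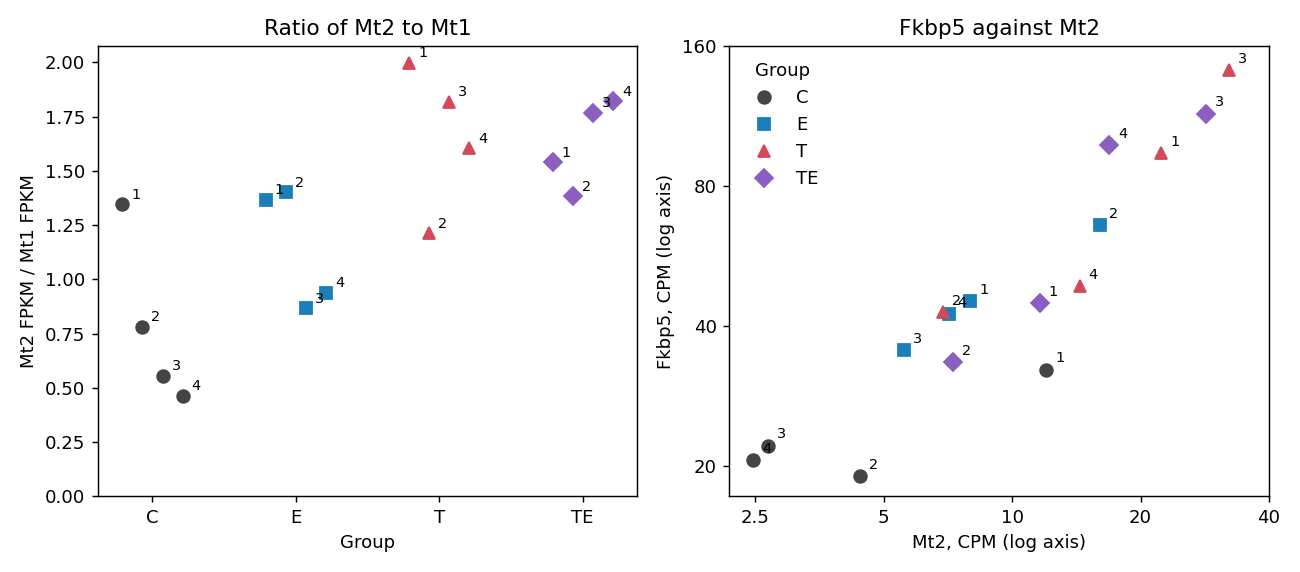
Left, the ratio of Mt2 to Mt1 FPKM in each mouse by group; right, CPM of Fkbp5 against CPM of Mt2 on log axes, with 1 numbered point per mouse. The ratio lies between 0.464 and 1.35 in C and between 1.21 and 2.00 in T mice, and Fkbp5 is highest in the mice with the highest Mt2.

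Slc39a14 varied less between mice than the metallothioneins. It was at 12.4, 15.9, 15.03 and 13.96 CPM in C replicates 1 to 4 and at 15.2, 19.0, 14.1 and 15.1 CPM in E replicates 1 to 4. It was at 18.7, 17.1, 20.3 and 15.4 CPM in T replicates 1 to 4 and at 20.8, 15.1, 19.1 and 14.5 CPM in TE replicates 1 to 4. T replicates 1 to 3 lay above all C mice, while T replicate 4 lay below C replicate 2. The log2 fold change was 0.32 (SE 0.128, interval 0.05 to 0.59, adjusted p = 0.256 by edgeR) in T vs C and 0.13 (interval -0.14 to 0.40, adjusted p = 0.797) in TE vs E. The tumor main effect was 0.23 (SE 0.0904, adjusted p = 0.257 by edgeR), so for the importer too no difference passed the threshold. These values were smaller on log2(FPKM + 1), where limma gave 0.18 in T vs C and 0.11 for the tumor main effect. With the smaller added constant of log2(FPKM + 0.1), limma gave 0.28 and 0.17. The edgeR value in TE vs E was 0.03 without TE replicate 1.

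Slc30a1, which exports zinc across the plasma membrane, had its lower means in the tumor-bearing groups. It was at 15.02, 16.8, 18.7 and 23.8 CPM in C replicates 1 to 4 and at 17.9, 16.3, 20.7 and 18.7 CPM in E replicates 1 to 4. It was at 15.03, 19.3, 13.5 and 16.5 CPM in T replicates 1 to 4 and at 13.0, 17.8, 13.8 and 16.1 CPM in TE replicates 1 to 4. C replicate 4 was the highest of all mice and TE replicate 1 the lowest, and the groups overlapped. The log2 fold change was -0.21 (SE 0.141, interval -0.51 to 0.09, adjusted p = 0.534 by edgeR) in T vs C and -0.28 (interval -0.58 to 0.02, adjusted p = 0.57) in TE vs E. Without C replicate 4 the value in T vs C was -0.07, and without T replicate 2 it was -0.31. The tumor main effect was -0.25 (SE 0.0997, interval -0.46 to -0.04, adjusted p = 0.267 by edgeR).

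Mtf1, the transcription factor, was the steadiest of these genes, with a highest level 1.37 times the lowest. It was at 13.2, 12.2, 15.3 and 12.3 CPM in C replicates 1 to 4 and at 14.4, 14.2, 16.7 and 16.4 CPM in E replicates 1 to 4. It was at 16.2, 15.4, 15.03 and 13.5 CPM in T replicates 1 to 4 and at 15.1, 14.8, 15.005 and 15.1 CPM in TE replicates 1 to 4. The TE mice lay within a narrow band (SD 0.150 CPM, n = 4), and C replicate 3 alone among the C mice reached the levels of the other groups. The log2 fold change of Mtf1 in T vs C was 0.18 (SE 0.0875, adjusted p = 0.364 by edgeR) and its tumor main effect was 0.07 (interval -0.06 to 0.20, adjusted p = 0.662). With limma these were 0.10 and 0.02 on log2(FPKM + 1), and 0.15 and 0.03 on log2(FPKM + 0.1).

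For training, the C group and the T group are the references, and the same mice are used as above, so these comparisons are not independent of the ones above. In E vs C, Mtf1 had a log2 fold change of 0.22 (SE 0.0873, interval 0.04 to 0.40, unadjusted p = 0.0218, adjusted p = 0.278 by edgeR). The log2 fold changes of the other genes in E vs C were 0.34 for Mt1, 0.77 for Mt2, 0.15 for Slc39a14 and -0.01 for Slc30a1, with edgeR adjusted p between 0.543 and 0.979. Without 1 library, the value of Mt2 ran from 0.36 (without E replicate 2) to 1.52 (without C replicate 1) and that of Mt1 from 0.10 to 0.57 with the same mice left out. In TE vs T, Mt2 had a log2 fold change of -0.24 (interval -1.32 to 0.84) and Mt1 one of -0.19 (interval -0.90 to 0.52). Slc39a14 was at -0.04 (interval -0.31 to 0.23), Slc30a1 at -0.08 (interval -0.38 to 0.21) and Mtf1 at 0.00 (interval -0.18 to 0.18) on the same scale. As a ratio of TE to T, the interval of Mt2 runs from 0.401 to 1.79, while that of Mtf1 runs from 0.88 to 1.14. The training main effect was 0.27 for Mt2 (interval -0.52 to 1.05), and ran from 0.05 (without TE replicate 3) to 0.64 (without C replicate 1). It was 0.11 for Mtf1 (interval -0.02 to 0.24) and lay between -0.05 and 0.08 for the other genes.

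The interaction, the tumor difference in trained mice minus that in untrained mice, was -1.01 on the log2 scale for Mt2 (SE 0.746, interval -2.59 to 0.56, adjusted p = 0.69 by edgeR). It was -0.53 for Mt1 (interval -1.55 to 0.48), -0.19 for Slc39a14, -0.07 for Slc30a1 and -0.22 for Mtf1 (interval -0.48 to 0.04). Without 1 library, the interaction of Mt2 ran from -1.76 (without C replicate 1) to -0.59 (without E replicate 2) and that of Mt1 from -0.90 (without TE replicate 3) to -0.19 (without T replicate 3). A dependence of the tumor difference on training was therefore not detectable with 4 mice per group, and for Mt2 the interval is wide.

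Across all comparisons, 0 of the 5 genes passed an adjusted p of 0.05 by edgeR, and 0 passed with DESeq2, limma on FPKM or voom with sample weights. The share of all 14749 tested genes that passed was 0.678% in T vs C, 0.231% in TE vs E, 0.0881% in E vs C, 0% in TE vs T, 1.36% for the tumor main effect, 0.00678% for the training main effect and 0% for the interaction. At an unadjusted p under 0.05, Mt1, Mt2 and Slc39a14 were among the 14.2% of genes in T vs C, and these with Slc30a1 among the 14.2% for the tumor main effect. Mtf1 was among the 14.2% in E vs C. None of the 5 was among the 9.23% in TE vs E, the 5.88% in TE vs T, the 10.8% for the training main effect or the 9.21% for the interaction. The CPM ranges of both groups were apart for 0 of the 5 genes, against 6.86% of all genes in T vs C, 6.62% in TE vs E, 9.08% in E vs C and 2.58% in TE vs T.

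**Figure D3:**
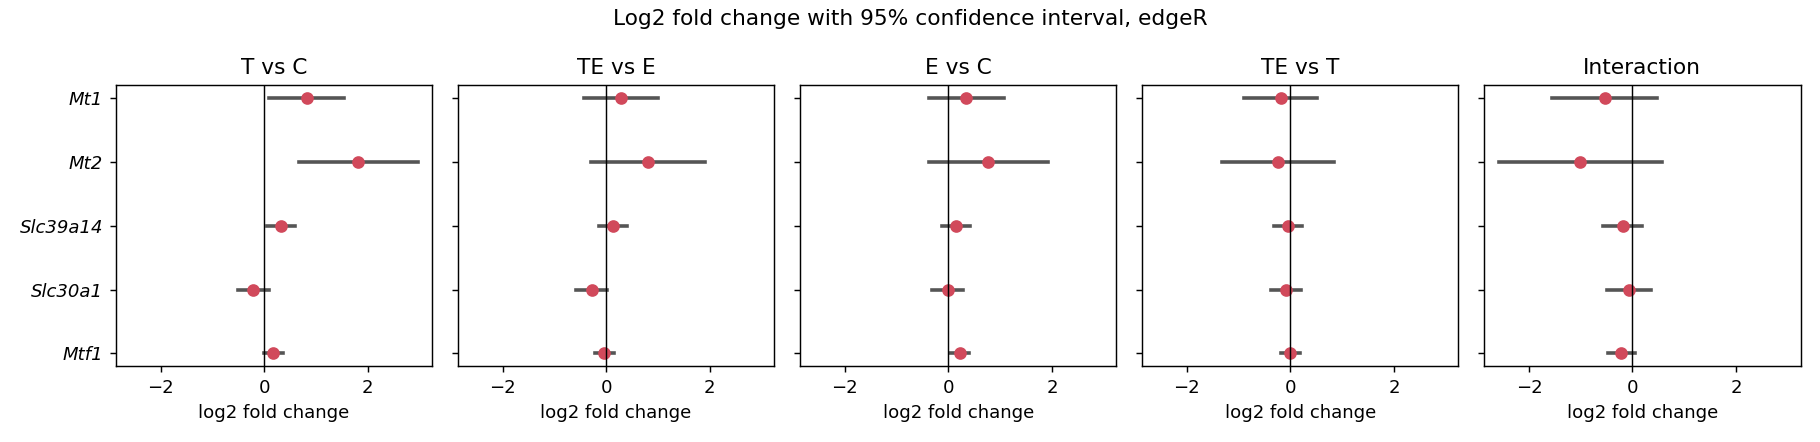
Log2 fold change (points) with 95% confidence interval (lines) of the 5 genes by edgeR in T vs C, TE vs E, E vs C, TE vs T and the interaction, on a common horizontal axis. The intervals of Mt2 are the widest in every panel, and its point in T vs C is at 1.82.

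Between mice of the same group, the metallothioneins moved together and Slc30a1 moved against them. After the group means were removed from log2 CPM, Mt1 and Mt2 had Pearson's r = 0.926 over the 16 libraries (Spearman's rho = 0.891, adjusted p = 5e-04 for r and 7e-04 for rho by a two-sided permutation test, over 10 pairs of genes). Without the 2 libraries farthest from the median of Mt1, T replicate 3 and TE replicate 3, r was 0.921. The lowest Slc30a1 level in the C, E and T groups was in the mouse with the highest Mt2, namely C replicate 1, E replicate 2 and T replicate 3, and in the TE group the mouse with the highest Mt2 had the second-lowest Slc30a1.

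For Mt2 and Slc30a1 the within-group r was -0.823 (rho = -0.80, adjusted p = 0.00945 for r and 0.0185 for rho by the permutation test), and -0.788 without C replicate 1 and TE replicate 3, the libraries farthest from the median of Mt2. Leaving out each mouse in turn gave r between -0.912 and -0.777, each with an adjusted p of at most 0.0389 by the permutation test. For Mt1 and Slc30a1, r was -0.702 (rho = -0.668, adjusted p = 0.0225 for r and 0.0444 for rho by the permutation test). That pair no longer passed the threshold without E replicate 2 (r = -0.676), T replicate 2 (-0.629), T replicate 3 (-0.646) or TE replicate 2 (-0.647). Slc39a14 and Slc30a1 had r = -0.523 (adjusted p = 0.146 by the permutation test), which became -0.796 (adjusted p = 0.00925) without C replicate 1. The other 6 pairs, which include all 4 pairs with Mtf1, had r between -0.175 and 0.384 and adjusted p of at least 0.448 by the permutation test. Of these, Mt2 and Slc39a14 went from r = 0.271 to 0.590 without C replicate 1 and to 0.131 without E replicate 2, and Mt1 and Slc39a14 from 0.384 to 0.568 and 0.264 without the same mice, with adjusted p of at least 0.119. The levels of a library share its total and TMM factor.

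**Figure D4:**
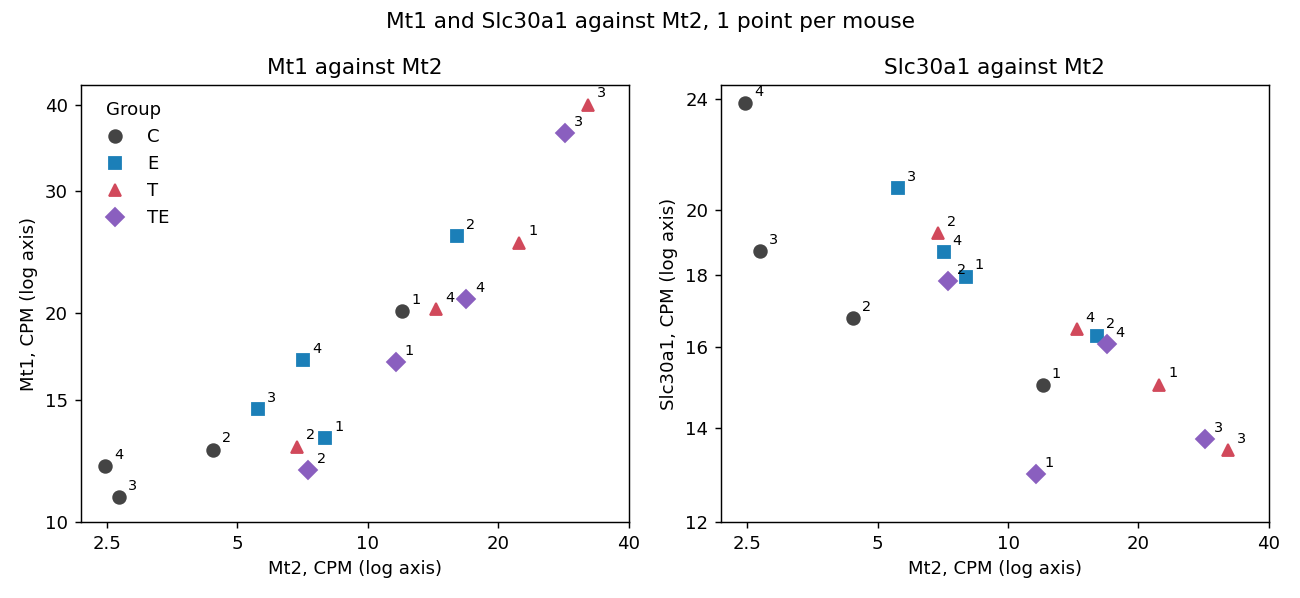
CPM of Mt1 (left) and Slc30a1 (right) against CPM of Mt2 on log axes, 1 numbered point per mouse with symbols for the C, E, T and TE groups. Mt1 tends to be higher and Slc30a1 lower in mice with more Mt2 (within-group r of 0.926 and -0.823), and TE replicate 1, with the lowest Slc30a1, has the second-lowest Mt2 of its group.

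Over all 16 libraries, with group differences left in, the genes most like each of the 5 were ranked by Pearson's r of log2 CPM among the 14748 other tested genes, as a description. Mt1 was most like Mt2 (r = 0.917), Fkbp5 (0.880) and Fibin (0.872). Mt2 was most like Fkbp5 (r = 0.925), which encodes a co-chaperone of the glucocorticoid receptor, Gm32845 (0.923) and Prima1 (0.922), which anchors acetylcholinesterase at the membrane. Mt1 came at rank 5 for Mt2. Slc30a1 was at r = -0.813 with Mt2, at rank 25 from the lowest.

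Fkbp5 was at 19.0 to 32.3 CPM in C, 35.5 to 65.9 CPM in E, 42.8 to 142 CPM in T and 33.4 to 114 CPM in TE mice. Its highest levels were in T replicate 3 and TE replicate 3, the mice with the highest Mt2 and Mt1. For Slc39a14 the closest genes were Kansl3 (r = 0.888), Ppme1 (0.871) and Mbnl2 (0.869), a splicing regulator. For Slc30a1 they were Dpp6 (r = 0.884), Zfp882 (0.817) and Rab3a (0.814), of which Dpp6 was under 2 CPM in every library. For Mtf1 they were Ccne2 (r = 0.861), which encodes cyclin E2, 9930021J03Rik (0.853) and Ubn1 (0.847). The 16 points of each r share the 4 groups, so no p is given.

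Of the 21 tested genes of the zinc-handling families, Mt1, Mt2, Slc39a14 and Slc30a1 included, 0 passed the test for the tumor main effect, which is near the share of 1.36% over all tested genes. Of 14 Slc39 importers 11 were tested, and 0 passed an adjusted p of 0.05 for the tumor main effect by edgeR, with a median log2 fold change of -0.04 against 0.00 over all genes. The smallest p-values among them were those of Slc39a14 and of Slc39a10, an importer at the plasma membrane, with 0.23 (SE 0.102, unadjusted p = 0.0389, adjusted p = 0.318 by edgeR). Of 10 Slc30 exporters 7 were tested, and 0 passed, with a median of -0.04. Slc30a9 was at 0.09 (SE 0.037, adjusted p = 0.299 by edgeR), beside Slc30a1 at -0.25. By the deposited FPKM, Slc30a9 had the highest mean of both families and the metallothioneins over the 16 libraries (25.7). That rank was not examined with other gene lengths. The Mt2 means in T (33.6) and TE (28.6) were above Slc30a9 in any library (at most 27.7). Of 4 metallothioneins 3 were tested, and Mt3, which is best known from brain, was at 0.03 (SE 0.243, adjusted p = 0.976 by edgeR). The genes left out by the filter were Slc39a4, Slc39a5, Slc39a12, Slc30a3, Slc30a8, Slc30a10 and Mt4, with at most 9 counts in a library.

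**Figure D5:**
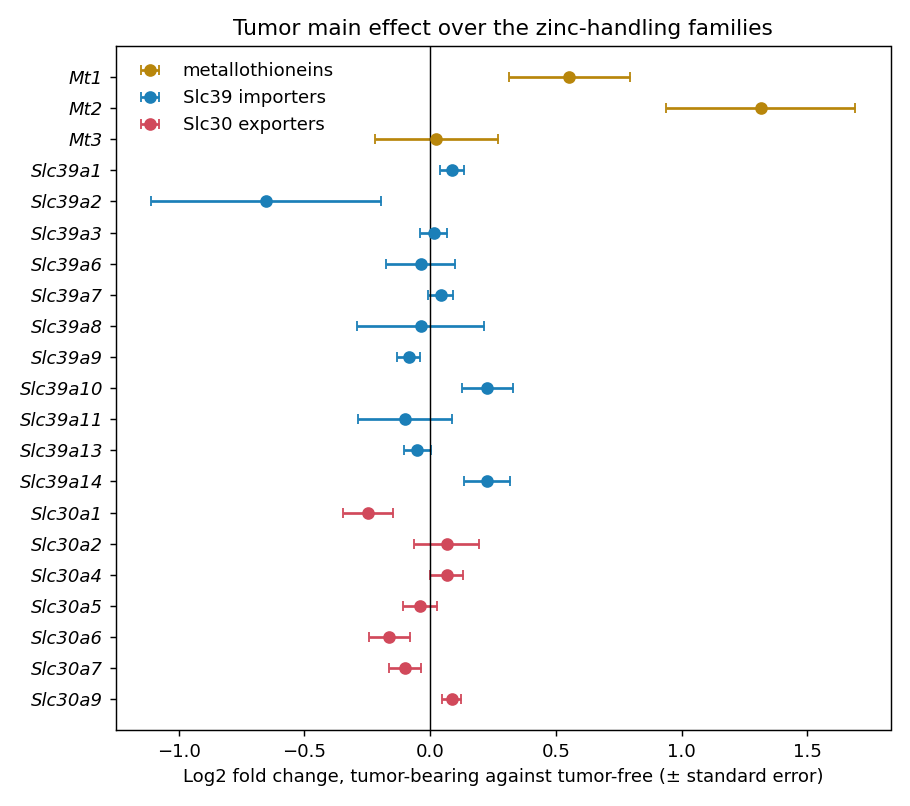
Log2 fold change for the tumor main effect (points, horizontal axis) with its standard error (bars) for the 21 tested metallothioneins, Slc39 importers and Slc30 exporters. Mt2 (1.32) and Mt1 (0.55) lie farthest to the right, Slc39a2 (-0.65) farthest to the left, and most transporters lie near 0. Slc39a2 was covered by only 2 to 21 counts in a library. Its value is therefore uncertain (SE 0.457, adjusted p = 0.565 by edgeR) and was not called.

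Among other genes known to respond to MTF1, 0 of 6 were called for the tumor main effect, where 1.36% of all tested genes were, and their median log2 fold change was -0.06. The smallest p-values in that list were those of Slc39a10 (0.23) and Csrp1 (-0.14, adjusted p = 0.434 by edgeR). Among genes for copper, which metallothioneins also bind, 0 of 9 tested passed, and Atox1, a copper chaperone, was at 0.18 (adjusted p = 0.146 by edgeR) and Slc31a2 at 0.14. Among genes for iron, a further cargo of ZIP14, 0 of 11 tested passed, and Steap3, an endosomal ferrireductase, was at -0.26 (adjusted p = 0.113 by edgeR) and Hmox1, which degrades heme, at -0.30 (adjusted p = 0.177). Of 9 tested NRF2 targets 0 passed, with a median of 0.00, and the smallest p-values were those of Hmox1 and Gclc (-0.11). With lists this short and a share of 1.36% over all genes, counts of 0 are near the background and are not a result about the lists.

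Lists of genes that respond to the same signals as the metallothioneins contained called genes. Of 13 tested genes of the IL-6 and STAT3 response, 4 rose in the tumor main effect by edgeR at an adjusted p under 0.05, namely Lrg1 (1.14), Osmr (1.00), Stat3 (0.43) and Bcl3 (1.39), with a median of 0.62 over the list. Of 14 glucocorticoid targets 2 rose, Fkbp5 (1.21, adjusted p = 0.0337 by edgeR) and Cdkn1a (1.01, adjusted p = 0.0295), with a list median of 0.23. In T vs C the called glucocorticoid targets were Fkbp5 (1.80, adjusted p = 0.0451 by edgeR) and Zbtb16 (1.495, adjusted p = 0.0392), with a list median of 0.38. In TE vs E 0 of the 14 were called, with 2 higher at an unadjusted p under 0.05 and a median of 0.16. For the interaction 0 were called, with 5 lower at an unadjusted p under 0.05 and a median of -0.31. Of the 13 IL-6 and STAT3 genes, 3 were called higher in T vs C (list median 0.87) and 2 in TE vs E (list median 0.31). For the interaction 0 of these 13 were called, with 1 lower at an unadjusted p under 0.05 and a median of -0.25. The shares of all tested genes called were 1.36% for the tumor main effect, 0.678% in T vs C, 0.231% in TE vs E and 0% for the interaction, and at an unadjusted p under 0.05 they were 9.23% in TE vs E and 9.21% for the interaction in either direction. No link of these genes to Mt1 or Mt2 was tested.

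Some markers of other cells passed the test for the tumor main effect, in which 1.36% of all tested genes and 0 of the 5 zinc-handling genes were called. All 5 neutrophil markers (S100a8, S100a9, Ngp, Retnlg and Ltf) were called higher for the tumor main effect, and their summed level was 0.632 to 3.43 CPM in C, 0.604 to 3.78 in E, 7.71 to 42.6 in T and 9.91 to 16.2 in TE mice. All 5 erythroid markers (Hba-a1, Hba-a2, Hbb-bs, Hbb-bt and Alas2) were called higher too, with summed levels of 222.9 to 326.1 CPM in C, 238.3 to 347.7 in E, 471.1 to 524.3 in T and 553.6 to 784.6 in TE mice. The 5 macrophage markers summed to 24.3 to 45.9 CPM in C, 27.2 to 50.7 in E, 35.0 to 65.4 in T and 36.3 to 50.1 in TE mice, with 0 called. Of the 5 endothelial markers 2 were called lower, Kdr (-0.69, adjusted p = 0.00233 by edgeR) and Emcn (-0.40, adjusted p = 0.0189). Of those not called, Vwf (0.41, adjusted p = 0.0761 by edgeR) and Pecam1 (0.20) were higher and Cdh5 (-0.20) was lower. The summed level of the 5 was 469.8 to 601.7 CPM in C, 593.8 to 640.3 in E, 469.7 to 633.6 in T and 452.5 to 565.8 in TE mice. Of the 5 fibroblast markers 1, Ly6a, was called higher (0.55, adjusted p = 0.0102 by edgeR). The other 4 went the other way without being called, namely Dcn (-0.33), Col3a1 (-0.31), Col1a1 (-0.21) and Pdgfra (-0.08). The median of the fibroblast list was -0.21. The summed level of the 5 was 838.5 to 1158 CPM in C, 1219 to 1572 in E, 778.8 to 1174 in T and 938.6 to 1061 in TE mice. Of the adipocyte, satellite cell, lymphoid and myofiber markers 0 were called. The 5 adipocyte markers summed to 13.0 to 69.7 CPM in C, 40.3 to 224.1 in E, 13.3 to 161.6 in T and 38.2 to 94.6 in TE mice, and their median log2 fold change was 0.995 in T vs C, -0.55 in TE vs E and 1.44 in E vs C, where 3 were higher at an unadjusted p under 0.05. The 5 lymphoid markers summed to 0.0875 to 13.2 CPM in C, 0.351 to 8.93 in E, 0.0553 to 0.368 in T and 0.0279 to 54.1 in TE mice, where TE replicate 4 alone was above 0.244, and 4 were lower in T vs C at an unadjusted p under 0.05 (median -4.77). At that unadjusted threshold the share of all tested genes, in either direction, was 14.2% in T vs C and 14.2% in E vs C. Up to 3 of the 5 neutrophil markers were at 0 in a C mouse and up to 2 in an E mouse, whereas each was detected in the T and TE mice. The part of these cells in the levels of the zinc-handling genes was not tested, and in whole muscle fewer cells of a type and less RNA per cell cannot be told apart.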

How the data were processed

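Counts per gene and FPKM of 16 gastrocnemius libraries were used, with groups and replicate numbers from the labels. The authors deposited raw counts (fastp 0.20.1, HISAT2 2.1.0 on GRCm39, HTSeq 0.11.2, versions from the submitters' processing notes) and FPKM values computed from these counts by gene length and library total. The annotation release and strand setting are not given in the sources used here, and 0 columns of other samples were present.

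Counts were tested with edgeR 4.0.16 in R 4.3.3 (filterByExpr, TMM, glmQLFit and glmQLFTest, 1 coefficient per group over all 16 libraries, two-sided, Benjamini-Hochberg over the 14749 tested genes). Correlations used log2 CPM (prior count 2) and 100000 permutations within groups. The test was checked on simulated data. Alternatives used DESeq2 1.42.0 and limma 3.58.1. The 5 genes are named in full. From other lists, each gene called for the tumor main effect was named, or otherwise the 2 with the smallest p there. For cell type markers, the called genes were named, and for the endothelial and fibroblast lists also the other members. For each of the 5, the 3 genes with the highest r were named. The genes, lists and tests were chosen with earlier results of these data known. Deviations of same-numbered libraries of different groups from their group means had correlations of -0.241 to 0.214, and differently numbered libraries were not compared. Counts were not corrected for PCR copies.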

Additional observations from a re-analysis of the deposited data

How the results depend on the processing

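Of 895 refits of the log2 fold changes of the 5 genes, 848 kept their direction and side of the threshold, 4 passed it newly and 43 changed sign, each in a comparison where the gene had not passed. Mt2 passed for the tumor main effect with no filter on low counts (1.31, 1 gene of the 5 called). Mtf1 in TE vs T (-0.0003) changed sign with DESeq2 (0.0028), DESeq2 size factors (0.0027), no filter (0.0048), limma on log2(FPKM + 1) (0.011), the same with a mean FPKM of at least 1 (0.011), log2(FPKM + 0.1) (0.017) and only both groups in the fit (0.0043). Slc30a1 in E vs C (-0.013) changed sign on log2(FPKM + 1) with and without the filter (0.029) and on log2(FPKM + 0.1) (0.039). With the replicate number as a block, Mtf1 in TE vs T was 0.000417 and Slc30a1 in E vs C was 0.0029, T vs C of Mt2 kept its side of the threshold, and genes called in E vs C went from 13 to 25. Replicate numbers stand for separate mice. Of 24 same-number correlations 5 were above 0.1, and differently numbered mice were not compared, so this count cannot show whether a number carries a shared effect. The r of Slc39a14 and Mtf1 (-0.019) was 0.048 on FPKM. The training main effect of Mt2 was 0.49 by voom with sample weights. With canonical transcript lengths, chosen after seeing the data, Mt2 was above Mt1 in 0 libraries in place of 11 and Mtf1 above Slc39a14 in 0 in place of 14, and with exon union lengths Mt2 was above Mt1 in 4.

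Leaving out each library in turn gave these ranges. In T vs C, Mt2 ranged from 1.43 (without T replicate 3) to 2.57 (without C replicate 1), with 0 to 1 genes of the 5 called. For the tumor main effect, Mt2 ranged from 1.10 to 1.70, with 0 to 1 called, Mt1 from 0.37 (without TE replicate 3) to 0.67 and Mtf1 from 0.052 to 0.11 (without C replicate 3). In TE vs E, Slc39a14 ranged from 0.034 (without TE replicate 1) to 0.23 (without E replicate 2), Mt1 from -0.086 (without TE replicate 3) to 0.53 and Mtf1 from -0.074 to 0.0049. In E vs C, Slc30a1 ranged from -0.10 (without C replicate 1) to 0.13 (without C replicate 4) and Slc39a14 from 0.050 (without E replicate 2) to 0.20. In TE vs T, Mt1 ranged from -0.56 (without TE replicate 3) to 0.15 (without T replicate 3), Mt2 from -0.67 to 0.15 with the same mice left out, Slc39a14 from -0.14 to 0.044, Slc30a1 from -0.17 to 0.020 and Mtf1 from -0.044 to 0.037. For the training main effect, Mt1 ranged from -0.11 to 0.25, Slc39a14 from 0.0044 (without TE replicate 1) to 0.095 (without TE replicate 4) and Slc30a1 from -0.091 to 0.022, and for the interaction Slc30a1 ranged from -0.21 to 0.035 and Slc39a14 from -0.29 (without TE replicate 1) to -0.086 (without E replicate 2). The r of Mt1 and Slc30a1 ranged from -0.795 to -0.629, of Slc39a14 and Slc30a1 from -0.796 to -0.445, of Mt1 and Mtf1 from -0.17 to 0.032, of Slc39a14 and Mtf1 from -0.22 to 0.16 and of Slc30a1 and Mtf1 from -0.051 to 0.29. The cause of these changes was not tested beyond the smaller number of mice.

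The number of all genes called depended on the tool. It was 100 in T vs C with edgeR, 27 with limma on log2(FPKM + 1) and 423 with DESeq2, and 16 without C replicate 4 and 255 without T replicate 2. It was 34 in TE vs E (20 on log2(FPKM + 0.1), 179 with DESeq2), 13 in E vs C (6 and 257), 0 in TE vs T (7 with DESeq2), 201 for the tumor main effect (479 with DESeq2), 1 for the training main effect (97 with DESeq2) and 0 for the interaction (20 with DESeq2). Without 1 library, TE vs E ran from 18 (without E replicate 3) to 69 (without T replicate 3), E vs C from 0 (without C replicates 1 or 3, or E replicate 4, each alone) to 127 (without T replicate 3), TE vs T from 0 to 2 (without C replicate 2), the tumor main effect from 130 (without E replicate 3) to 281 (without T replicate 2), the training main effect from 1 to 104 (without T replicate 3) and the interaction from 0 to 1 (without T replicate 2). DESeq2 called 0 of the 5 genes in each of these comparisons.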
